A study of Mus musculus with 12 samples.

Results

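The 10 core genes of the circadian clock were described in RNA sequencing libraries from mouse brain and liver: Arntl, Clock, Npas2, Per1, Per2, Per3, Cry1, Cry2, Nr1d1 and Nr1d2. They are 10 of the 55450 genes in the deposited count table, and each was found once by its symbol. The genes were chosen by name, with earlier results of these libraries known, and the measured values that stood behind the choice were not recorded. Differences between replicate numbers, which the choice may have rested on, are therefore given as descriptions with no test.

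The clock of mammalian cells is a feedback loop of transcription. ARNTL (also called BMAL1) pairs with CLOCK or NPAS2 and binds E-box sequences in front of the Per, Cry and Nr1d genes. PER and CRY proteins then return to the nucleus and inhibit that pair, while the nuclear receptors NR1D1 and NR1D2 repress Arntl, Npas2, Clock and Cry1 through ROR elements. In liver most of these transcripts swing widely over the day, with Arntl and Npas2 high when the Per genes are low, and in whole brain the swings are smaller.

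Total RNA of male mice aged 7 to 9 weeks was sequenced from brain and liver, in 4 groups of 3 libraries each: wild-type brain, Vaultrc5-/- brain, wild-type liver and Vaultrc5-/- liver. Vaultrc5 is a small vault RNA, and the study's title concerns its need in mouse development. The control libraries carry flx in their titles and wild-type in their genotype label, and the protocol calls these mice Vaultrc5+/+; the labels used here name no strain, no Cre driver and no further allele. They also give neither the time of day of collection nor the lighting or feeding, and they do not say whether a brain and a liver with the same number came from 1 animal or whether libraries came from separate litters. P-values therefore measure only the spread between these libraries. Total counts lay between 14844971 and 18567381 in the brain libraries and between 23247449 and 27155480 in the liver libraries. Vaultrc5 had 33 to 48 counts in wild-type livers, 1 to 4 in wild-type brains and 0 in all 6 knockout libraries, so in brain it is too low to check the genotype labels well. The neuronal marker Snap25 had at least 31003 counts in each brain library and at most 3 in liver, and the hepatocyte marker Alb had at most 5 counts in brain. The 4 hepatocyte genes together (Alb, Apoa1, Ttr and Cps1) summed to 0.616 to 439 CPM in brain, so the other 3 were not all near 0 there.

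The brain libraries differed in the regions they held. The summed level of 5 cerebellar genes (Cbln1, Cbln3, Gabra6, Pcp2 and Fat2) was 1456 and 1427 CPM (counts scaled to library size, on a scale common to all libraries) in the wild-type and knockout libraries numbered 1. It was 5.50 and 6.92 CPM in those numbered 2 and 293 and 561 CPM in those numbered 3. All 5 of these genes were set apart by replicate number, while the 5 striatal genes showed no such order. The 5 genes of cortex and hippocampus summed to 188 to 207 CPM in the libraries numbered 1 and to 399 to 404 CPM in those numbered 2. The genotype comparison in brain is therefore also given without the 2 libraries numbered 2, and the tissue comparisons without the 1 of them that each holds.

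Letters that match known clock-related DNA elements were found near a transcript start of several of the genes. Promoter windows of RefSeq (build GRCm38.p6, 250 bases before to 50 bases after a transcript start) were found for 9 of the 10 genes (all but Per2), 13 windows in all. The E-box CACGTG was in 2 of the 13 windows, those of Cry1 and Per1, and in 7.15% of all 32851 windows. Its variant CACGTT was in those of Cry1, Cry2 and Nr1d1, against 4.69% of all windows. The ROR element, searched as TAGGTCA or TGGGTCA, was in 1 Arntl window (6.45% of all), and the D-box TTATGTAA in the Per3 window (0.938% of all). The cAMP response element TGACGTCA was in 0 of the 13 (1.79% of all). Both strands were searched, and no 2 of these motifs overlapped in the stretches shown. Those stretches are given 5′ to 3′ on the strand of the gene, with the motif in capitals. AACGTG is CACGTT read on the other strand. The Per1 stretch lies inside the annotated gene, which begins at base 69095217 of chromosome 11, so the start meant for it is a later transcript start. The matches describe these letters and were not tested for binding.

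Arntl, chr7:113207529-113207558, plus strand, in the first exon, ROR element from base 31 of the transcript: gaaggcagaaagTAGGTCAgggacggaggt

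Per1, chr11:69098753-69098818, plus strand, E-box beginning 166 bases before the start: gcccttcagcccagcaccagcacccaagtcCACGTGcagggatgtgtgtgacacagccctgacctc

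Cry1, chr10:85185079-85185163, minus strand, E-box variant and E-box beginning 79 and 60 bases before the start: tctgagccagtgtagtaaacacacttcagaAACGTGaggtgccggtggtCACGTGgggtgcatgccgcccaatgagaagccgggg

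Nr1d1, chr11:98775378-98775435, minus strand, E-box variant beginning 28 bases before the start: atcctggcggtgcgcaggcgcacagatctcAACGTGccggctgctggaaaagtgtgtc

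Per3, chr4:151044786-151044900, minus strand, 2 D-boxes beginning 205 and 158 bases before the start: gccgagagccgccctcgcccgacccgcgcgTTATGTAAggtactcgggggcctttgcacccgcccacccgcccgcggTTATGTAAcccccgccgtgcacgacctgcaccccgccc

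The genes lie on 8 chromosomes, and those on the same chromosome lie far apart. On chromosome 11 the lower ends of Per1 and Nr1d1 are at bases 69095217 and 98767932. On chromosome 1 those of Npas2 and Per2 are at 39193731 and 91415982. Of the 10, 3 overlap an exon of another gene on the opposite strand. The neighbour with the most counts is Thra, whose exons cover 263 bases of Nr1d1 (chromosome 11, 98767932 to 98775333, GRCm38). In brain Thra reached 4267 to 6611 counts and in liver 281 to 346, and Nr1d1 had 1655 to 2494 and 2756 to 4613. The kit marks the strand, but the use of strand in counting was not given in the sources used here, so reads from the shared bases cannot be told apart. The partners of Arntl and Cry2 had at most 2 counts in any library. Expected counts were whole numbers in all 12 libraries for 9 genes, and Nr1d2 had fractional counts in 3 libraries.

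Per exon length, the nuclear receptors Nr1d1 and Nr1d2 were the most abundant of the 10 transcripts in both tissues. Nr1d1 was at 31.0 ± 3.70 RPKM (counts per length of merged exons and library size, mean ± SD over the 6 libraries of both genotypes) in brain and 66.4 ± 12.5 RPKM in liver. Nr1d2 was at 18.7 ± 1.58 RPKM in brain and 26.8 ± 5.22 RPKM in liver. In liver no library of Nr1d1 fell into the range of Nr1d2, and none of Nr1d2 into that of Clock, the third. Below them Clock at 8.40 RPKM, Per1 at 7.79, Cry2 at 7.08, Per2 at 5.60, Per3 at 3.54, Cry1 at 2.58, Arntl at 1.46 and Npas2 at 0.666 RPKM in liver formed a chain in which each neighbouring pair had overlapping ranges. In brain the order after Nr1d2 was Per1 at 16.0, Cry2 at 12.9, Clock at 8.84, Npas2 at 6.94, Per3 at 4.67, Arntl at 4.18, Per2 at 4.02 and Cry1 at 3.37 RPKM. There the ranges of Nr1d1 and Nr1d2, and of Cry2 and Clock, did not overlap, while those of all other neighbours did. Dividing by the longest transcript instead put Cry2 above Per1 in both tissues, Arntl above Npas2 and Per3 in brain and Per3 above Per2 in liver, with Nr1d1 and Nr1d2 still the highest. In brain it raised Arntl to 7.88, Per3 to 7.48 and Cry2 to 20.6 RPKM, and in liver to 2.75, 5.67 and 11.2 RPKM. In liver Per1 ran from 2.31 to 16.8 RPKM around a median of 4.80 RPKM, and Npas2 from 0.109 to 1.63 RPKM around 0.572.

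**Figure D1:**
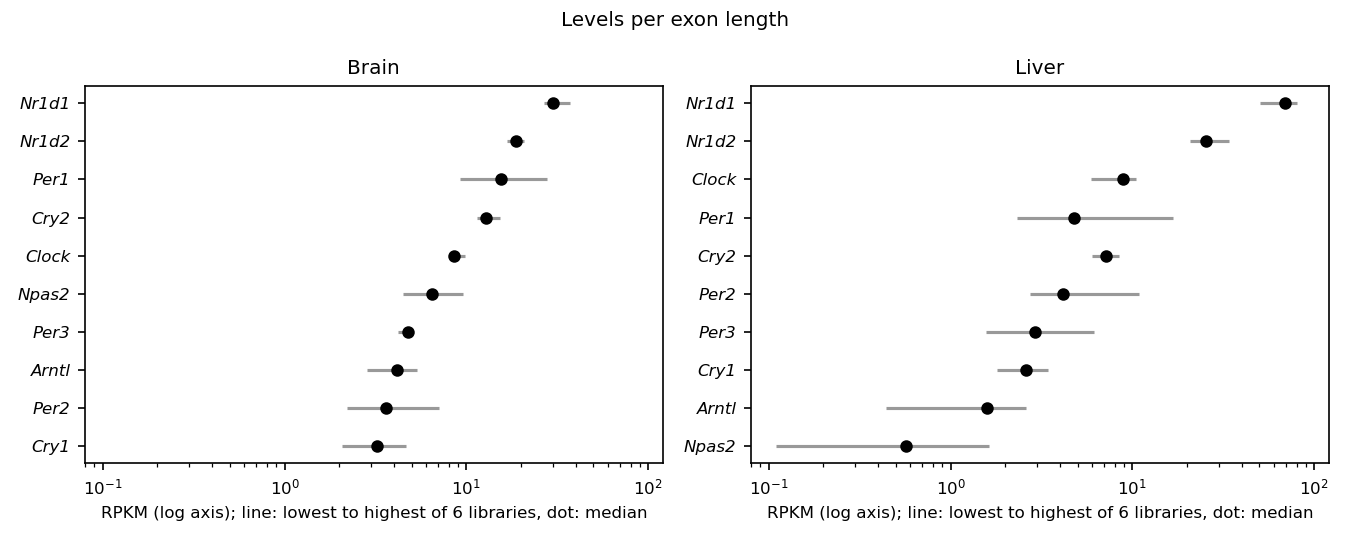
Level of each gene per exon length in brain (left) and liver (right), in RPKM on a log axis; lines run from the lowest to the highest of 6 libraries and dots mark the median. Nr1d1 is highest in both tissues, at mean levels of 31.0 and 66.4 RPKM, and the lines of Arntl, Npas2 and the Per genes are long in liver.

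In liver the 2 libraries numbered 3, 1 wild type and 1 knockout, stood apart from the other 4 for most of the clock genes. Arntl, Npas2, Clock and Cry1 were lowest there, and Per1, Per2, Per3, Cry2 and Nr1d2 were highest. The order held in both genotypes, and the largest of these differences were those of Npas2, Per1 and Arntl. These are descriptions of 6 libraries.

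Arntl, the obligate partner of CLOCK and NPAS2, was at 11.6, 12.3 and 3.30 CPM in wild-type livers 1, 2 and 3 and at 19.5, 15.4 and 3.82 CPM in knockout livers 1, 2 and 3. Both libraries numbered 3 lay below all others, 3.97-fold lower than the mean of the rest on the log scale. Npas2, the CLOCK paralogue, was at 4.56, 1.60 and 0.524 CPM in the wild-type livers, against 7.79, 3.89 and 0.785 CPM with the knockout. The libraries numbered 1 were highest and those numbered 3 lowest, on counts of 10 to 148 per library. From means of log2 CPM with a prior count of 2, numbers 1 and 3 differed 8.18-fold. At such low counts the size depends on that addition. Number 3 minus the others was -2.42 on that scale and -1.60 as log2 of CPM + 1. Clock was at 116, 128 and 81.3 CPM in the wild-type livers, against 143, 136 and 86.9 CPM with the knockout, so it had the same low number with a smaller ratio of 1.57 between the highest and lowest number.

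Per1, a repressor gene that is also induced by glucocorticoids and by cAMP signalling, was at 14.9, 35.7 and 86.4 CPM in wild-type livers 1, 2 and 3 and at 13.0, 18.4 and 94.7 CPM in knockout livers. Libraries numbered 3 were 6.47-fold above those numbered 1, and both genotypes kept the order 3, 2, 1. Per2, the second period gene, was at 23.3, 24.5 and 45.3 CPM in the wild-type livers, against 16.0, 24.2 and 63.3 CPM with the knockout. Per3, whose loss is known to leave rhythms largely intact, was at 29.5, 26.7 and 50.9 CPM in the wild-type livers, against 15, 23.1 and 59.2 CPM with the knockout. Both were highest in the libraries numbered 3, with ratios of highest to lowest number of 2.76 for Per2 and 2.60 for Per3.

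The cryptochromes went different ways. Cry1, the stronger repressor of the pair, was at 9.69, 10.8 and 5.98 CPM in the wild-type livers, against 11.5, 7.78 and 6.00 CPM with the knockout, lowest in both libraries numbered 3. Cry2 was at 45.3, 44.9 and 48.7 CPM in the wild-type livers, against 38.6, 37.8 and 53.1 CPM with the knockout, highest in both libraries numbered 3 by a factor of 1.22. The nuclear receptors differed too. Nr1d1 (REV-ERB alpha) was at 247, 230 and 164 CPM in the wild-type livers, against 235, 155 and 195 CPM with the knockout, and it was the 1 gene of the 10 whose libraries numbered 3 did not stand apart. Nr1d2 (REV-ERB beta) was at 127, 148 and 184 CPM in the wild-type livers, against 127, 113 and 172 CPM with the knockout, highest in both libraries numbered 3.

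**Figure D2:**
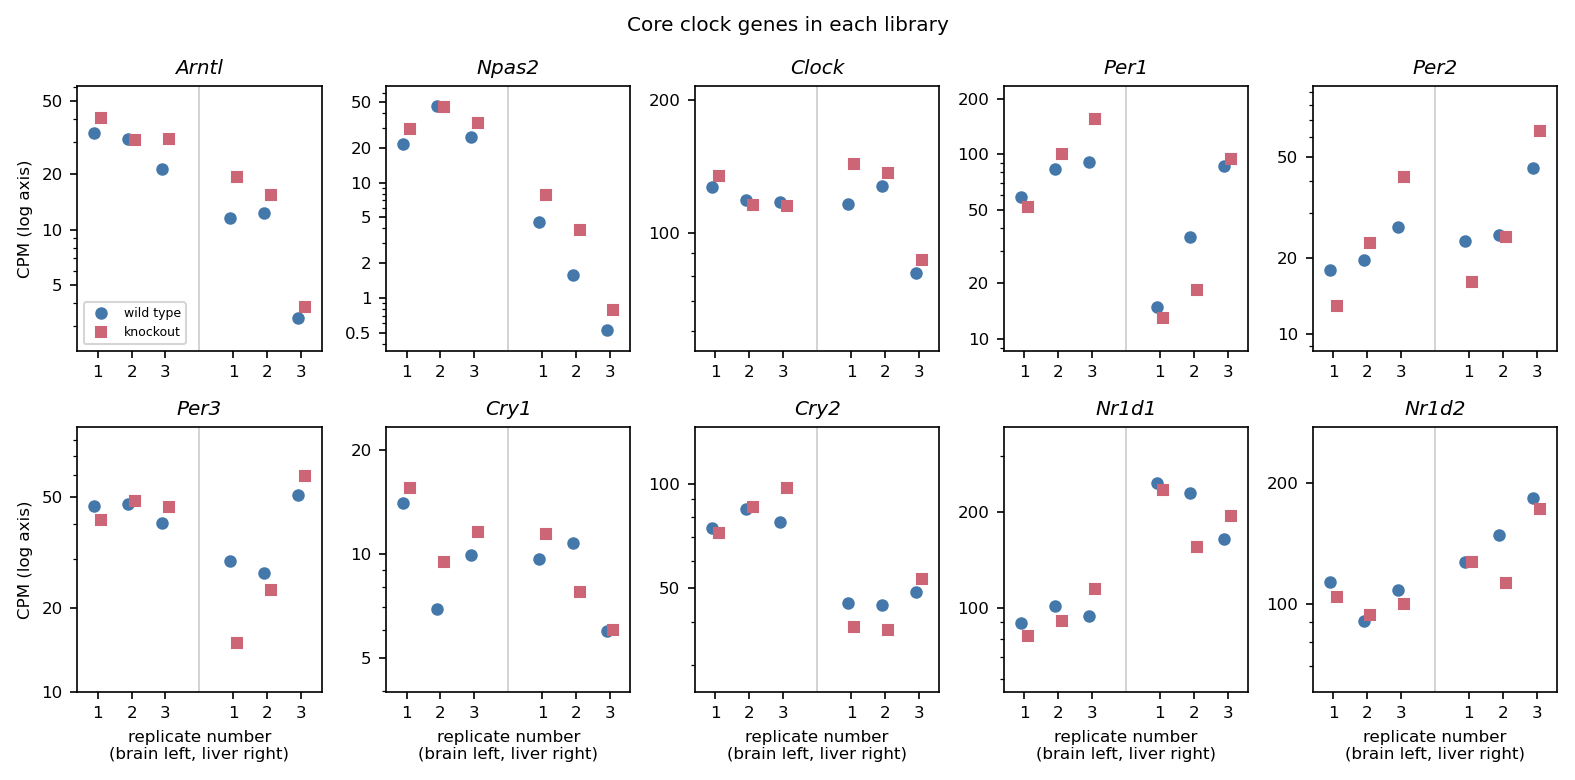
Level of each of the 10 genes in all 12 libraries, in CPM on a log axis, by replicate number in brain (left of the line) and liver (right of it); circles are wild type and squares knockout. In liver, both libraries numbered 3 lie lowest for Arntl (3.30 and 3.82 CPM) and highest for Per1 (86.4 and 94.7 CPM), in both genotypes.

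Counted over the 10 genes, both liver libraries numbered 3 lay above the other 4 for 5 genes (10.7% of the 15329 genes tested in liver) and below them for 4 (13.4% of all). Any replicate number was set apart in this way for 10 of the 10 genes and for 45.2% of all genes. A number set apart with at least 2 times between the highest and lowest number was seen for 5 of the 10, Arntl, Npas2, Per1, Per2 and Per3, and for 5.62% of all. Nothing is read from these shares, because the choice of the genes may have used this difference. The median ratio of highest to lowest number was 2.13 for the 10 genes and 1.21 over all genes. Within a genotype, the SD of log2 CPM of Npas2 was above that of 99.1% of liver genes, that of Per1 above 98.9% and that of Arntl above 98.3%, while Cry2 lay at 49.4%. The sign of the number 3 difference was the same for each gene under TMM, DESeq2 size factors and library totals, and Per2 alone changed whether number 1 was also set apart.

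Other lists moved with the same libraries. The summed level of 6 glucocorticoid targets (Fkbp5, Tsc22d3, Sgk1, Zbtb16, Mt1 and Mt2) was 409 and 456 CPM in livers numbered 3 and 118 to 268 CPM in the other 4. Of the 6 genes, 4 were highest in both libraries numbered 3, against 10.7% of all liver genes. The sum of the 4 hepatocyte genes, 52360 to 88140 CPM, was highest in the libraries numbered 3 with a ratio of 1.47 between highest and lowest number, but 1 of the 4 genes was itself highest in both. Immediate early genes, at 90.2 to 188 CPM, were highest in the livers numbered 1. The neuronal list, at 25.7 to 34.6 CPM, was highest in the livers numbered 3, with a ratio of 1.18 between highest and lowest number. The astrocyte list, at 1021 to 1539 CPM, was lowest in those numbered 2. The oligodendrocyte list, at 2.24 to 4.42 CPM, was highest in those numbered 1. Endothelial genes at 241 to 302 CPM, red cell genes at 108 to 163 CPM and Kupffer cell genes at 128 to 303 CPM were not set apart by number. The part of these differences in the clock gene levels was not tested. In bulk tissue, fewer cells of a type and less RNA per cell cannot be told apart.

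In brain the differences by number were smaller for 9 of the 10 genes, all but Cry1 (1.81-fold against 1.75-fold between highest and lowest number), and did not follow the liver order as a whole. Per1 was at 58.8, 83.4 and 90.8 CPM in wild-type brains 1, 2 and 3 and at 52.1, 100 and 156 CPM in knockout brains, lowest in both libraries numbered 1. Per2 was at 17.9, 19.7 and 26.5 CPM in the wild-type brains, against 12.9, 22.9 and 41.5 CPM with the knockout, highest in both libraries numbered 3. Per2 was thus highest in the number 3 brains as in the number 3 livers. Per1 was highest in the number 3 brain within each genotype, but wild-type brain 3 lay below knockout brain 2. Per3 stayed between 40.4 and 48.3 CPM in all 6 brains.

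The activators in brain gave another order. Arntl was at 33.8, 31.4 and 21.3 CPM in the wild-type brains, against 40.3, 30.7 and 31.3 CPM with the knockout, highest in the libraries numbered 1. Npas2, which is enriched in forebrain, was at 21.6, 45.8 and 24.7 CPM in the wild-type brains, against 29.3, 45.1 and 33.0 CPM with the knockout. It was highest in the libraries numbered 2, the ones with few cerebellar counts and the most cortical ones. A link between region content and Npas2 was not tested. Clock lay within 115 to 134 CPM in all brains. Cry1 was at 14.0, 6.93 and 9.92 CPM in the wild-type brains, against 15.6, 9.48 and 11.6 CPM with the knockout, lowest in both libraries numbered 2.

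Cry2 at 72.1 to 96.9 CPM, Nr1d1 at 81.8 to 114 CPM and Nr1d2 at 90.3 to 113 CPM varied by 1.18- to 1.21-fold between the highest and lowest mean of a number. A number was set apart for 10 of the 10 genes in brain and for 59.8% of all 18075 genes tested there. The libraries numbered 1 were above the other 4 for 3 of the 10 and below for 4, against 20.4% and 17.3% of all genes. With at least 2 times between highest and lowest number, 2 of the 10 were set apart, Per1 and Per2, against 8.25% of all. With DESeq2 size factors no number was set apart for Clock, and number 3 was also below the others for Arntl. With library totals no number was set apart for Nr1d1 and Per3. The cerebellar, cortical and immediate early gene levels (266 to 1028 CPM summed over 8 genes, lowest in the libraries numbered 1) moved with the brain numbers too. So did the glucocorticoid targets, at 165 to 274 CPM, lowest in the libraries numbered 1 and highest in those numbered 3. The choroid plexus genes, at 3.32 to 55.0 CPM, the hepatocyte list, at 0.616 to 439 CPM, and the astrocyte genes, at 154 to 365 CPM, were lowest in the libraries numbered 2. Neuronal genes (2362 to 3173 CPM) and microglial genes (46.0 to 75.0 CPM) were highest there, and red cell genes (5.65 to 12.3 CPM) were highest in the libraries numbered 1. The hepatocyte sum ranked the 6 brains in the same order as the choroid plexus sum, and Alb had at most 5 counts in any brain. The oligodendrocyte genes were not set apart by number but reached 4285 CPM in wild-type brain 3, against 1231 to 2245 CPM in the other 5. For all of these lists, their part in the clock gene levels was not tested.

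**Figure D3:**
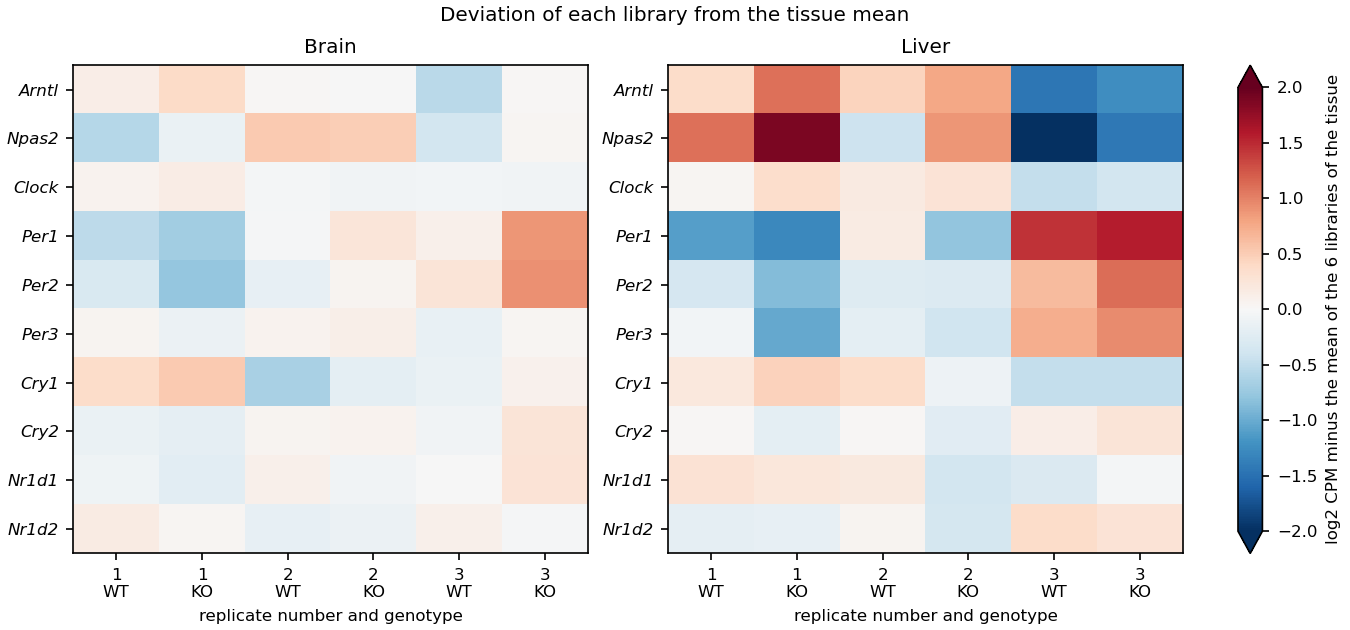
Deviation of log2 CPM in each library from the mean of the 6 libraries of its tissue, for brain (left) and liver (right), with wild type (WT) and knockout (KO) of 1 replicate number side by side; red is above and blue below the mean, and the scale ends at 2. In liver the columns numbered 3 are blue for Arntl, Npas2, Clock and Cry1 and red for Per1, Per2 and Per3, and the brain panel is paler.

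The design sets knockout against wild type within each tissue, and for the clock genes no difference between genotypes passed the test in either tissue. Wild-type and knockout ranges overlapped for all 10 genes in both tissues, where 4.23% of genes in brain and 9.62% in liver had ranges apart. In liver 0 of the 10 had an edgeR adjusted p under 0.05, as did 0% of all 15329 genes, and 0 of the 10 had an unadjusted p under 0.05, against 3.5% of all. DESeq2's Wald test called 10 genes in liver, 0 of them among the 10 clock genes, and 0 genes in brain.

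The largest liver estimates were those of the activators. Npas2 was at 2.23 ± 2.09 CPM in the wild-type liver, against 4.15 ± 3.51 CPM with the knockout (SD, n = 3), with a log2 difference of 0.90 ± 0.99 (SE; edgeR adjusted p = 0.992). Arntl was at 9.07 ± 5.01 and 12.9 ± 8.13 CPM (SD, n = 3), with a log2 difference of 0.51 ± 0.73 (SE; edgeR adjusted p = 0.992). In both genes the spread between numbers was larger than the difference between genotypes.

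Same-numbered wild-type and knockout livers deviated together over all genes, with correlations of 0.286, 0.318 and 0.381 for numbers 1, 2 and 3, so the comparison was also read within numbers. Knockout was above wild type in all 3 pairs for Arntl, Npas2 and Clock, by 0.74, 0.33 and 0.20 on the log2 scale for Arntl, by 0.76, 1.24 and 0.51 for Npas2 and by 0.30, 0.10 and 0.10 for Clock. The other 7 genes had pairs of both signs. Pairs of 1 sign throughout were found for 3 of the 10 genes and for 28.8% of all liver genes. With the replicate number as a block, the SE of Npas2 fell to 0.24 around an estimate of 0.92 and that of Arntl to 0.14 around 0.46. The unadjusted edgeR p-values were 0.0059 for Npas2 and 0.0146 for Arntl, where 6.41% of all genes were under 0.05, and the adjusted p-values were 0.711 and 0.745. In that fit 0 of the 10 genes and 0.013% of all, or 2 genes, were called. The period genes had log2 fold changes of -0.31 ± 0.24 (SE) for Per1, 0.01 ± 0.22 for Per2 and -0.29 ± 0.27 for Per3 with the block, and -0.10 ± 1.05, 0.17 ± 0.60 and -0.12 ± 0.59 without it.

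Without the 2 livers numbered 3, 0 of the 10 genes were called, as were 0 of all genes tested. There the log2 fold change was 0.54 for Arntl, 0.92 for Npas2 and -0.25 for Per2, whose sign turned. For Per1 the estimate ran from -1.54 to 0.75 when single libraries were left out. Leaving out 1 library turned the sign for 7 of the 10 genes in liver, all but Arntl, Npas2 and Clock.

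In brain 0 of the 10 genes had an edgeR adjusted p under 0.05, as did 0% of all 18075 genes, and 0 had an unadjusted p under 0.05, against 0.675% of all. Per1 had the largest estimate, with 77.7 ± 16.8 CPM in the wild-type brain, against 103 ± 52.0 CPM with the knockout (SD, n = 3), a log2 difference of 0.39 ± 0.38 (SE; edgeR adjusted p = 1.00). Arntl had one of 0.23 ± 0.19 (SE), Cry1 one of 0.23 ± 0.29 and Npas2 one of 0.21 ± 0.31. Clock, Nr1d1 and Per3 had estimates between -0.003 and 0.008 with SE of 0.096 to 0.142. Cry1 alone was higher in the knockout in all 3 same-numbered pairs, 1 of the 10 genes against 22.1% of all with pairs of 1 sign. Without the 2 brains numbered 2, 0 genes were called, and Npas2 had a log2 difference of 0.43 ± 0.15 (SE; edgeR adjusted p = 1.00).

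**Figure D4:**
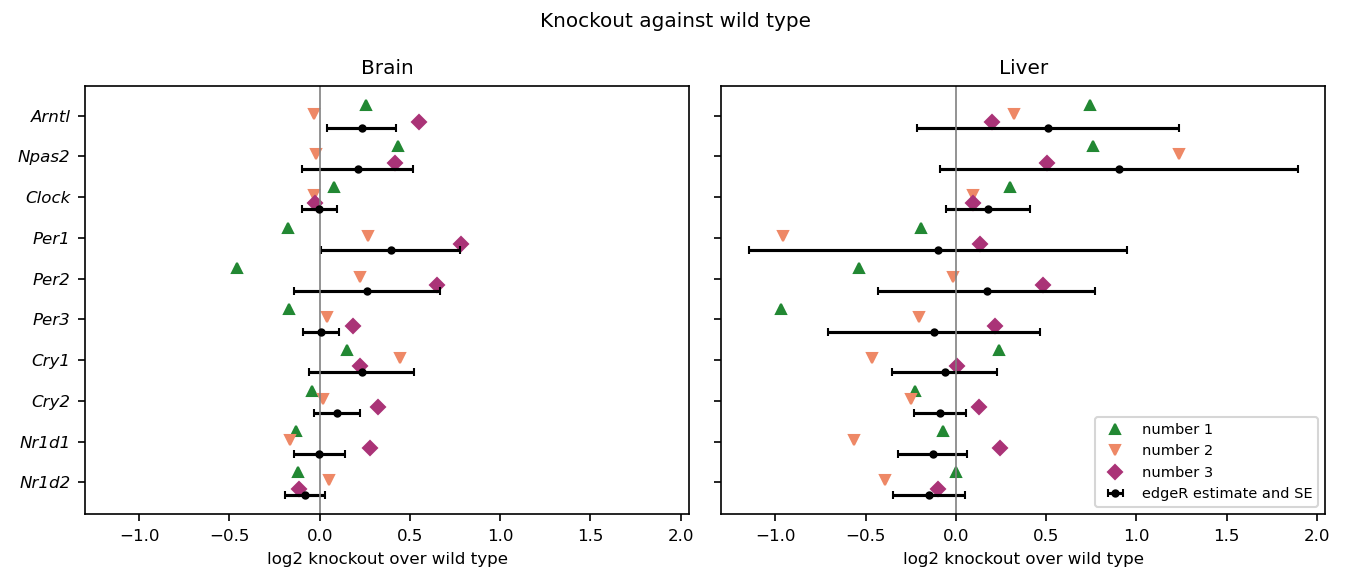
Log2 ratio of knockout over wild type for each gene in brain (left) and liver (right); triangles, inverted triangles and diamonds are the pairs numbered 1, 2 and 3, and black dots with bars are edgeR estimates with SE from 3 against 3 libraries. In liver all 3 pairs lie above 0 for Arntl, Npas2 and Clock, and the bars of Npas2 (0.90 ± 0.99) and Per1 (-0.10 ± 1.05) are the widest.

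The difference of the knockout effect between liver and brain was tested over all 12 libraries. None of the 10 genes was called (0% of 20141 genes), and 0 had an unadjusted edgeR p under 0.05, against 2.43% of all; DESeq2's Wald test called 1 gene and none of these 10. The largest differences were 0.70 ± 0.97 (SE) for Npas2 and -0.53 ± 1.07 for Per1 on the log2 scale, with an edgeR adjusted p = 1.00 for both.

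Between tissues 5 of the clock genes differed, in both directions. In the wild type 5 of the 10 passed edgeR's test at an adjusted p under 0.05, of which 3 were higher in brain and the other 2 in liver. Over all 18850 genes 78.6% were called, 43.9% as brain-high and 34.7% as liver-high. The same 5 were called in the same directions in the knockout, which shares no library with the wild type; there 78.7% of 18785 genes were called, 43.5% as brain-high and 35.2% as liver-high. The median absolute log2 fold change of the 10 genes was 0.66 (wild type) and 0.74 (knockout), against 1.55 and 1.54 over all genes. Each of the 5 had ranges that did not overlap between tissues in either genotype, as did 82.4% of all genes in each. The groups are those of the genotype comparisons, so the 2 kinds of comparison share libraries.

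The activators Arntl and Npas2 and the repressor Cry2 were higher in brain. Npas2 was at 30.7 ± 13.2 CPM in wild-type brain and 2.23 ± 2.09 CPM in wild-type liver (SD, n = 3), a log2 difference of 3.80 ± 0.65 (SE; edgeR adjusted p = 0.000932), and 3.08 ± 0.62 with an adjusted p = 0.00248 in the knockout. Arntl was at 28.8 ± 6.60 and 9.07 ± 5.01 CPM, with 1.67 ± 0.44 (SE) in the wild type (edgeR adjusted p = 0.00905) and 1.39 ± 0.50 in the knockout (adjusted p = 0.0339). Cry2 was at 78.7 ± 5.10 and 46.3 ± 2.07 CPM, with 0.77 ± 0.10 (SE) in the wild type (edgeR adjusted p = 0.00017) and 0.96 ± 0.17 in the knockout. Clock, the partner that can stand in for Npas2, was at 121 ± 5.36 and 108 ± 24.2 CPM and did not pass in either genotype under TMM, though it did with library totals (edgeR adjusted p = 0.000622 in the wild type and 0.00283 in the knockout).

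The nuclear receptors were higher in liver. Nr1d1 was at 95.2 ± 6.11 CPM in wild-type brain and 214 ± 43.5 CPM in wild-type liver (SD, n = 3), a log2 difference of -1.16 ± 0.16 (SE; edgeR adjusted p = 0.000336), and -1.04 ± 0.19 in the knockout. Nr1d2 was at 104 ± 11.8 and 153 ± 29.0 CPM, with -0.55 ± 0.16 (SE) in the wild type (edgeR adjusted p = 0.0136) and -0.49 ± 0.17 in the knockout (adjusted p = 0.0287). Per1, Per2, Per3 and Cry1 did not pass, with log2 fold changes of 0.77 ± 0.54, -0.54 ± 0.28, 0.33 ± 0.24 and 0.23 ± 0.31 (SE) in the wild type.

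Scaling and single libraries of both tissues bore on these calls. When library totals replaced TMM, the median of all genes rose on the log2 scale by 0.84 (wild type) and 0.88 (knockout), Nr1d2 turned to 0.28 and 0.38 and Per2 to 0.30 and 0.42, and Nr1d1 kept its sign at -0.32 and -0.17 without passing. In that scaling 7 of the 10 genes passed in the wild type and 6 in the knockout, all as brain-high and 0 as liver-high, where 15632 of 18850 and 15539 of 18785 genes passed. The calls gained were Clock (1.01), Per1 (1.60), Per3 (1.16) and Cry1 (1.08) in the wild type and Clock (0.87), Per3 (1.32) and Cry1 (1.41) in the knockout. The share of calls higher in brain moved with it, from 55.9% to 74.4% of wild-type calls and from 55.3% to 75.1% of knockout calls. Without liver number 3, Per1 and Per3 passed as higher in brain in both genotypes, with log2 fold changes of 1.61 and 0.66 (wild type) and 2.68 and 1.21 (knockout). In the knockout the edgeR adjusted p of Arntl rose to 0.0582 to 0.0869 in 4 of the 6 fits that left out 1 library. It rose to 0.119 with no filter on low counts. The edgeR adjusted p of Nr1d2 rose to 0.0615 to 0.0754 in the 3 that left out a brain. In those fits with 1 library left out, the log2 fold changes were 1.27 to 1.51 for Arntl and -0.51 to -0.47 for Nr1d2. Without the brain numbered 2, 5 of the 10 genes passed in the wild type and 3 in the knockout, where 15053 and 14755 of all genes passed, against 14817 and 14789 with all libraries.

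**Figure D5:**
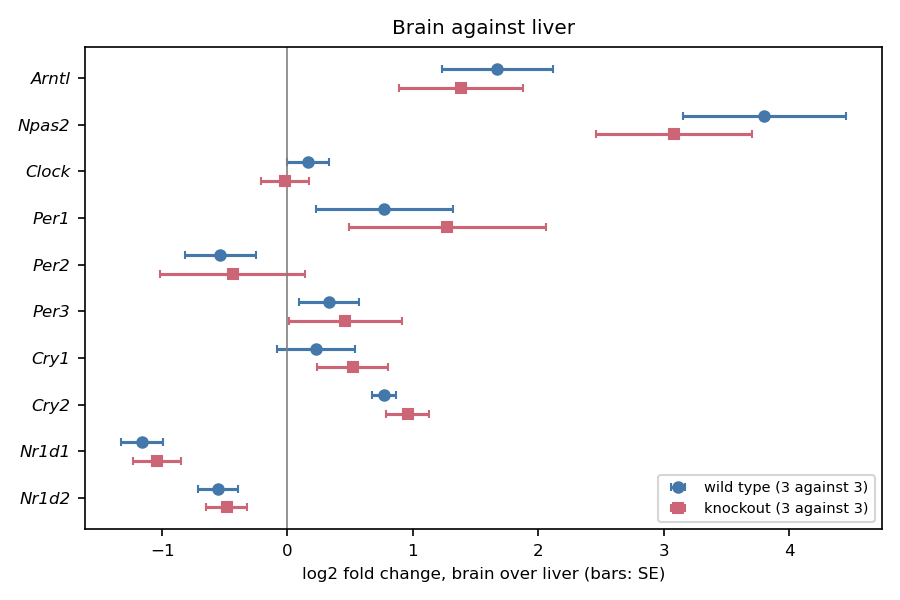
Log2 fold change of brain over liver for each gene, with SE, from 3 against 3 libraries in the wild type (circles) and in the knockout (squares). Npas2 (3.80 and 3.08), Arntl and Cry2 lie above 0 and Nr1d1 (-1.16 and -1.04) and Nr1d2 below it in both genotypes; with library totals in place of TMM, Nr1d2 and Per2 lie above 0.

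Of the 15 further clock genes listed beside the core set, 0 of 15 tested in brain and 0 of 14 in liver passed between genotypes, as did 0% of all genes in each tissue. Of the 15, 11 passed between tissues in each genotype, 9 higher in brain and 2 in liver, against 78.6% and 78.7% of all genes called. Rorb, a ROR receptor of neurons and retina, was at 96.4 ± 40.0 CPM in wild-type brain (SD, n = 3) and near 0 in liver, so its fitted ratio cannot be read. Csnk1e, a kinase that marks PER proteins for breakdown, had 2.47 ± 0.14 (SE) in the wild type and 2.62 ± 0.15 in the knockout. The E-box repressor Bhlhe40 was higher in liver, with -1.61 ± 0.14 (SE) in the wild type (edgeR adjusted p = 1.87e-05) and -1.37 ± 0.43 in the knockout (adjusted p = 0.0203). The knockout call was lost with library totals (-0.51), with no filter on low counts (edgeR adjusted p = 0.0792) and without knockout brain 1 (0.0754) or knockout brain 2 (0.0589).

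Between genotypes the lowest and highest log2 fold changes of that list were -0.36 ± 0.25 (SE) for Fbxl21, -0.20 ± 0.21 for Bhlhe41, 0.15 ± 0.12 for Usp2 and 0.19 ± 0.32 for Rorb in brain. In liver they were -0.36 ± 0.27 for Bhlhe41, -0.32 ± 0.35 for Fbxl21, 0.05 ± 0.11 for Rora and 0.10 ± 0.08 for Gsk3b. The difference of effects, liver minus brain, ran from -0.31 ± 1.00 for Usp2 and -0.27 ± 0.49 for Bhlhe40 to 0.13 ± 1.11 for Ciart among genes with counts in both tissues. By replicate number, Ciart, a repressor of the ARNTL complex, and Usp2, a clock-controlled protease, were highest in the livers numbered 3, with ratios of highest to lowest number of 6.58 and 6.27. A number was set apart in liver for 8 of the 14 genes tested, and in 2 of them by at least 2 times, against 45.2% and 5.62% of all genes.

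The output factors that share D-box targets with the clock also differed by number in liver. Dbp was at 80.7, 71.1 and 141 CPM in the wild-type livers, against 41.6, 47.9 and 124 CPM with the knockout, and Tef and Hlf were likewise highest in both livers numbered 3. Nfil3, which opposes them at D-boxes, was lowest there, at 9.70 and 6.90 CPM. None of the 4 passed between genotypes in either tissue, nor did any of all genes (0% in brain and in liver). Dbp was lower in the knockout in all 3 same-numbered liver pairs, by -0.96, -0.57 and -0.19 on the log2 scale, the 1 of the 4 with pairs of 1 sign against 28.8% of all liver genes. With the replicate block Dbp had -0.56 ± 0.16 (SE; edgeR unadjusted p = 0.0162, adjusted p = 0.748). Tef had -0.30 ± 0.12 with the block (edgeR unadjusted p = 0.0428, adjusted p = 0.766), where 6.41% of all genes had an unadjusted p under 0.05. Between tissues Dbp and Nfil3 were higher in wild-type liver, with -1.18 ± 0.25 and -1.22 ± 0.23 (SE), and Hlf higher in wild-type brain, with 0.88 ± 0.19; in the knockout Nfil3 and Hlf passed and Dbp did not. That is 3 of the 4 in the wild type and 2 in the knockout, against 78.6% and 78.7% of all genes. With library totals the calls of Dbp (-0.35) and Nfil3 (-0.38) in the wild type and of Nfil3 (-0.042) in the knockout were lost, and Tef passed as higher in brain (0.99 and 1.16). Tef, at 0.16 ± 0.16 (SE) in the wild type and 0.30 ± 0.28 in the knockout with all libraries, also passed without liver number 3 (0.34, edgeR adjusted p = 0.0313, and 0.69, adjusted p = 0.00266). The knockout Nfil3 call was also lost without knockout brain 2, knockout liver 1 or knockout liver 2 (edgeR adjusted p of 0.0577 to 0.0638).

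The genes most like Arntl were ranked by Pearson's r of log2 CPM over the 12 libraries, centred within each tissue, among 8398 genes with at least 5 CPM in both. The 5 most like were 4932438A13Rik (0.975), Clock (0.971), Lrfn3 (0.951), Ank2 (0.947) and Sbno2 (0.934). The 5 most opposite were Zfp276 (-0.956), Coq10b (-0.943), Lpin2 (-0.941), Tef (-0.934) and Ift88 (-0.932). Each of these 10 genes was lowest or highest in both livers numbered 3, and in brain their r with Arntl ran only from 0.635 to 0.890 and from -0.656 to -0.365. The 12 points share their tissue and depth in groups of 6, so r is a description, and the r within liver alone ran from 0.953 to 0.993 and from -0.983 to -0.960. Among the core genes Per3 had an r of -0.905, Per1 of -0.871 and Nr1d1 of 0.297. By tissue, Per3 had 0.266 in brain and -0.961 in liver, and Per1 had -0.441 and -0.936. Nr1d1 had -0.32 in brain and 0.412 in liver, so the signs of Per3 and Nr1d1 differed between tissues.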

How the data were processed

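Total RNA of 12 libraries (3 each of wild-type and knockout brain and liver) was sequenced as single-end reads after ribosomal RNA depletion and a stranded ligation kit, per the labels' protocols. The authors deposited expected counts per gene, not normalized and not pooled. The tools cutadapt and STAR and the build mm10 are listed in the submitters' processing notes, with no roles; the counting tool was not given in the sources used here. All 55450 identifiers and symbols matched GENCODE M21 (GRCm38). Expected counts were rounded to whole numbers.

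Groups were compared in R 4.3.3 by the quasi-likelihood test of edgeR 4.0.16, with robust estimation and TMM scaling. Low genes were removed by filterByExpr (at least 10 counts, 15 in total), and p-values were adjusted after Benjamini and Hochberg over every gene tested and called below 0.05. Genotypes within a tissue and tissues within a genotype were fitted on their own 6 libraries and the interaction on 12. SE is the absolute log2 fold change over the square root of F. CPM in the text use TMM over all 12 libraries, which in log2 carry a prior count of 2, and RPKM divide these by merged exon length. Intervals were not computed for single counts, whose error is limited by depth. On simulated counts the fits recovered most of 200 changed genes in each comparison. Those changes were larger than the genotype estimates of the 10 genes, and their spread was smaller than that of liver Npas2, Per1 and Arntl. That check therefore does not show what size of genotype difference could be found for them. Replicate pairs within groups differed by 27.2 to 228 times the chi-square degrees of freedom, so each library counted once.

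Same-numbered wild-type and knockout libraries shared deviations in liver (correlations of 0.286, 0.318 and 0.381 over 13080 genes) but not in all brain pairs (0.667, 0.679 and -0.006 over 16361 genes); the pairing comes from the numbers in the titles, and in liver it was taken as holding. A gene was called set apart by number when both libraries of 1 number lay above, or both below, the other 4 of the tissue. The clock genes, the other lists and the markers were chosen with earlier results of these data known. Genes named are the 10 members, Vaultrc5, Alb and Snap25, the 5 genes most like and most opposite to Arntl, the 2 highest and 2 lowest of 15 further clock genes in each comparison (1 of them is not reported here), and Dbp, Tef, Hlf and Nfil3; Thra was named after its overlap was seen, and Ciart and Usp2 by number after their values were seen. Alternatives were DESeq2 1.42.0 size factors and Wald test, library totals, 2 other filters, robust off, 1 fit of 12 libraries, the replicate block and each replicate left out; fits without the brain libraries numbered 2 or the liver libraries numbered 3 were added after seeing the data. No library or column was left out otherwise.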

Additional observations from a re-analysis of the deposited data

How the results depend on the processing

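With 3 libraries a group and 10 to 4613 counts per library for the clock genes, the SE of liver Npas2 fell from 0.99 to 0.24 with the replicate block at the same depth. The count of genes called between genotypes in liver was 0, but 10 with the DESeq2 Wald test, 4 with no filter beyond 1 count, 2 with the replicate block and 0 to 1 with single libraries left out (1 without wild-type liver 2). For the difference of effects between tissues it was 0, but 1 with the DESeq2 Wald test and 2 with the replicate block. The cause was not tested. With the replicate block, 7 of the 10 clock genes were called between tissues in each genotype, against 5 without it, while the calls over all genes went from 14817 to 14496 in the wild type and from 14789 to 14396 in the knockout. Same-numbered brains and livers had correlations of -0.024 to 0.081, so the numbers were not taken as pairs; as a hint from the data, each wild-type library correlated best with its own number, and not every knockout library did. In brain the block, whose numbers did not pair every library, called 0 genes. In the knockout tissue comparison 3 to 7 clock genes (3 without any 1 of the knockout brains, 7 without knockout liver 3) were called with single libraries left out, against 14326 to 14773 of all genes.

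Signs turned under other settings, and the cause was not tested. For brain genotypes, Clock became 0.010 in a fit of all 12 libraries and 0.031 without the brains numbered 2, and Nr1d1 0.0088 and 0.097. For liver genotypes without the livers numbered 3, Per2 became -0.25, Nfil3 0.048 and Rora -0.055. For the difference of effects, Ciart became -0.20 with the replicate block and -0.95 without the livers numbered 3, and Rorb -0.20 there, a fitted value that cannot be read, since Rorb had 0 counts in wild-type liver (so also its range below). With library totals, Per2 became 0.30 and Nr1d2 0.28 between wild-type tissues, and Clock 0.87, Per2 0.42, Nr1d2 0.38 and Dbp 0.15 between knockout tissues. Knockout Clock was also 0.0070 with no filter, 0.0095 with the block and 0.0018 in a fit of all 12 libraries.

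With each single library left out, the log2 fold changes that turned sign had these ranges for genotypes in brain: Clock -0.075 to 0.043, Per1 -0.038 to 0.71, Per2 -0.26 to 0.59, Per3 -0.051 to 0.071, Cry2 -0.011 to 0.20, Nr1d1 -0.15 to 0.10, Dbp -0.14 to 0.12, Hlf -0.040 to 0.26, Rorb -0.075 to 0.54. In liver the ranges were Per1 -1.54 to 0.75, Per2 -0.62 to 0.55, Per3 -0.90 to 0.23, Cry1 -0.33 to 0.12, Cry2 -0.28 to 0.0004, Nr1d1 -0.29 to 0.0052, Nr1d2 -0.36 to 0.0074, Hlf -0.19 to 0.14, Nfil3 -0.30 to 0.20, Rora -0.027 to 0.12. For the knockout effect in liver minus brain they were Arntl -0.16 to 0.70, Clock -0.0075 to 0.36, Npas2 -0.14 to 1.74, Per1 -1.95 to 0.32, Per2 -0.90 to 0.43, Per3 -0.93 to 0.19, Nr1d1 -0.30 to 0.037, Nr1d2 -0.29 to 0.065, Tef -0.58 to 0.039, Hlf -0.29 to 0.061, Bhlhe40 -0.86 to 0.023, Ciart -1.71 to 0.88, Rorb -0.20 to 3.17, Usp2 -1.53 to 0.97. For wild-type brain against liver they were Clock -0.023 to 0.28, Cry1 -0.077 to 0.38. For knockout brain against liver they were Clock -0.24 to 0.086, Per2 -0.97 to 0.32.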
